A study of Oryza sativa and Arabidopsis thaliana with 28 samples.

Results

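Cytosines in the first 20% of the span of rice genes, called the 5′ segment below, were examined for C-to-T reads in ac4C-seq. A site was a member if it lay on chromosomes 1 to 8 inside a plus-strand gene with an Os identifier, at less than 20% of the span counted from the gene start. The rule found 32074 of the 341437 listed rice sites, in 1315 of 1562 such genes (84.2%), and 32073 of them had at least 10 reads in both libraries and were tested. The 1562 genes come from a deposited list titled for genes with ac4C modification. The 84.2% is thus a share of that list and not of all rice genes. They were set against the 131403 sites that lay further along in the same 1315 genes (131395 tested), called the rest below. Positions are those of IRGSP-1.0. Neither strand nor exon structure is given for a site, so the 5′ segment is a stretch of the gene span, introns included, and not of the spliced mRNA.

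The NaCNBH3 group was 1 library of poly(A) RNA from 15-day-old seedlings of the japonica cultivar Nipponbare, treated with NaCNBH3 for 20 min. The control group was 1 library from seedlings of the same cultivar and age, given the mock treatment for 20 min. A second readout came from 8 RNC-seq libraries of rice seedlings, 2 each of ribosome-bound RNA (RNC) and total mRNA in osnat10-1 (osnat10 below, a line whose name points to the rice NAT10 acetyltransferase) and in WT (genotype Kitaake). The ac4C-seq plants were thus of another cultivar than the WT of RNC-seq, and no ac4C-seq library of osnat10 was used here. Each library is a seedling sample, and the labels do not say how many plants were pooled.

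N4-acetylcytidine (ac4C) is made on RNA by cytidine acetyltransferases of the NAT10 family and is best known in ribosomal and transfer RNA. Reduction with NaCNBH3 in acid turns ac4C into a base that reverse transcriptase tends to read as T, so that C-to-T reads that appear after reduction and not in the mock library mark candidate ac4C sites. The 5′ part of an mRNA holds the cap, the leader and the start codon, where ribosomes load and begin translation, which is why its modification is of interest for translation. The deposited files give no names for the rice genes, so sites are placed by chromosome and position, and few gene identifiers are used.

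A handful of 5′-segment sites had high C-to-T rates after NaCNBH3, with few or no T reads in the control, and most of the others had rates under 2%. The 12 sites with the largest difference between libraries, 1 per gene with at least 50 reads in both libraries, are given first. Each rate is the share of reads that were T, with its 95% exact (Clopper-Pearson) interval. The intervals cover counting error alone, because copies of 1 molecule cannot be told apart in reads that carry no identifier. With 1 library per group, Fisher's exact test compares these libraries and not the treatments.

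The highest rate among the 12 was in Os07g0529600 (chromosome 7, 20724581 to 20726069). At position 20724692, 111 bases from the gene start, 4908 of 5188 reads were T in the NaCNBH3 library, or 94.6% (94.0 to 95.2), against 0 of 3258 reads in the control library, which allows a rate of up to 0.0921%. No other site of this gene came near. Its other 119 sites of the 5′ segment had a median NaCNBH3 rate of 0.879% and reached at most 1.36%, and its 339 sites in the rest had a median of 0.960% and reached at most 2.35%. Another listed cytosine lay 2 bases away from the 94.6% site.

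Os01g0595400 (chromosome 1, 23333024 to 23337221) had the next highest. At position 23333131, 107 bases from the start, 412 of 918 reads were T in the NaCNBH3 library, or 44.9% (41.6 to 48.2), against 0 of 1474 reads in the control library, which allows up to 0.204% (adjusted p = 2.06e-201, Fisher's exact test). Its other 193 sites of the 5′ segment had a median of 0.970% and a highest rate of 3.08%. In both genes 1 cytosine thus stood alone among its neighbours.

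The next sites had rates between 10% and 31%. On chromosome 7, position 29657760 lay 898 bases into a gene that runs from 29656862 to 29662462 and had 30.6% (22.5 to 39.6; 37 of 121 reads) in the NaCNBH3 library, against 0.862% (0.0218 to 4.71; 1 of 116 reads) in the control library. On chromosome 6, position 17837198 lay 222 bases into a gene (17836976 to 17840764) and had 29.1% (24.9 to 33.5; 130 of 447 reads) after NaCNBH3, against 0 of 1088 control reads, which allows up to 0.276%. Position 16811973 of chromosome 8, 274 bases into its gene, had 26.0% (17.9 to 35.5; 27 of 104 reads) after NaCNBH3, against 0 of 108 control reads, which allows up to 2.78%. These 3 differ widely in depth, and the interval of the first and last is accordingly broad. The first and last also stood less alone. The other 3 sites in the 5′ segment of the first gene had a median of 7.46% and reached 8.45%. The other 3 of the last had a median of 3.97% and reached 6.67%. In the gene on chromosome 6 the other 48 reached at most 3.29%.

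Position 9874495 of chromosome 1 lay 116 bases into a gene (9874379 to 9876678) and rested on the deepest control of the 12. It had 22.3% (19.5 to 25.3; 184 of 824 reads) after NaCNBH3, against 0.0248% (0.00301 to 0.0896; 2 of 8057 reads) in the control library. On chromosome 8, position 19547519 had 22.9% (18.6 to 27.8; 78 of 340 reads) after NaCNBH3, but its control rate of 5.83% (2.17 to 12.2; 6 of 103 reads) was the highest among the 12 (adjusted p = 0.000174, Fisher's exact test). This cytosine was therefore read as T in part without reduction.

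Position 24505407 of chromosome 7 lay 192 bases into a gene (24505215 to 24508630) and had 20.6% (16.5 to 25.1; 73 of 355 reads) after NaCNBH3, against 0 of 828 control reads, which allows up to 0.362%. In the rest of this gene 3 further sites exceeded the control by 5 points or more, the highest at 19.5% (16.0 to 23.3; 94 of 483 reads, position 24506418) after NaCNBH3, against 0 of 1621 control reads. On chromosome 4, position 20653909 was 193 bases from the start and had 16.5% (12.9 to 20.6; 63 of 382 reads) after NaCNBH3, against 0 of 945 control reads. None of the other 9 sites in the 5′ segment of that gene passed 2.68%.

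Position 1561856 of chromosome 8, 102 bases into a gene of 5204 bases, had 16.25% (12.8 to 20.2; 65 of 400 reads) after NaCNBH3, against 0 of 204 control reads, which allows up to 1.47%. The last 2 of the 12 rest on few reads. Position 5452308 of chromosome 7 had 18.0% (11.0 to 26.9; 18 of 100 reads) after NaCNBH3, against 2.63% (3 of 114 reads) in the control. The other 13 sites in the 5′ segment of its gene had a median of 2.94% and reached 6.85%. A site in the rest of that gene reached 18.6%. On chromosome 5, position 17923255 had 10.6% (4.96 to 19.2; 9 of 85 reads) after NaCNBH3, against 0 of 65 control reads, which allows up to 4.62%. Its adjusted p was 0.0114 by Fisher's exact test here and 0.496 in the authors' deposited table.

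**Figure D1:**
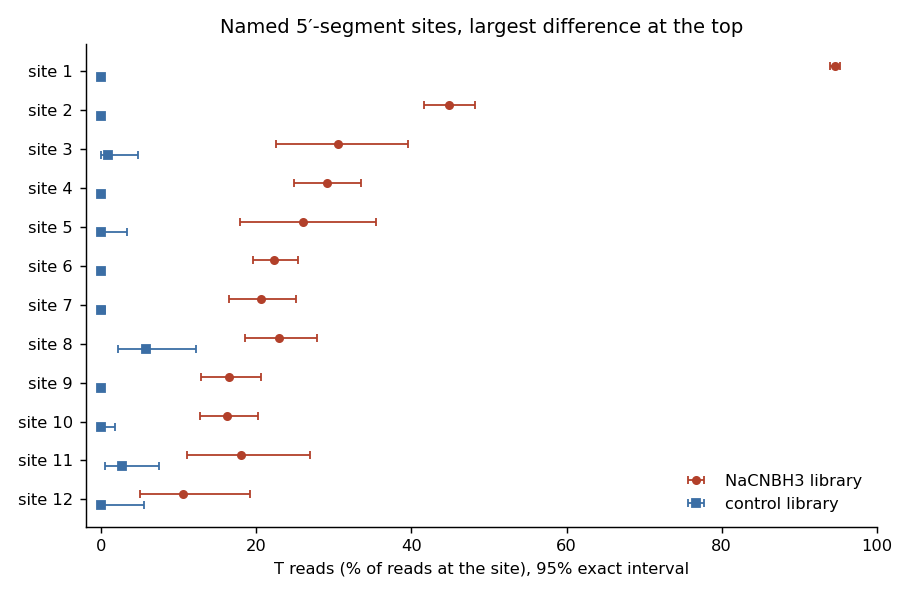
C-to-T rate (x axis, % of reads, 95% exact intervals) at the 12 sites of the 5′ segment with the largest difference, in the NaCNBH3 library (circles) and the control library (squares). Site 1 is position 20724692 of chromosome 7 at 94.6%, site 2 is position 23333131 of chromosome 1 at 44.9%, and the other 10 lie between 10.6% and 30.6%, with broad intervals where few reads were counted.

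Taking every site with at least 200 reads in both libraries, 16 of 30641 sites of the 5′ segment (0.0522%, 95% exact interval 0.0299 to 0.0848) stood at least 5 points above control, against 46 of 114604 in the rest (0.0401%, 0.0294 to 0.0535), and 0.147% of the whole rice table. The difference between these shares was not tested, and the intervals treat sites as independent although sites of a gene share reads. The whole rice table, here and below, also holds sites outside the rule's genes, so its share is not one of like sites. Of the 16, 14 had 0 T reads in the control, against 34 of the 46 in the rest. The 16 lay in 16 different genes, while 7 genes held several such sites in their rest (20 sites in all). In 3 genes a site of this kind stood in the 5′ segment and another in the rest.

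The 16 sites lay between 16 and 701 bases from the gene start (median 207.5), and 11 of them within 250 bases. This was 68.75% of the 16, against 58.0% of all sites of the 5′ segment with this depth, and this difference was not tested. Near them, 104 other listed cytosines stood within 20 bases of a high site, around 13 of the 16. Their NaCNBH3 rates had a median of 1.01% and reached at most 3.96%, so no high site had a high neighbour at that distance. The WT mRNA level of the 16 genes ran between 4.05 and 130 RPKM.

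Most members were found at low rates. Every listed site had at least 5 T reads in the NaCNBH3 library, with no such demand on the control library, so the list itself favours sites with the higher rate after NaCNBH3. The shares called below describe the listed sites and do not show by themselves how often NaCNBH3 raised the rate. Over the 32073 tested sites, the NaCNBH3 rate had a median of 1.06% (quartiles 0.800% and 1.43%), against a control median of 0 and a control mean of 0.0430%. In the rest the NaCNBH3 median was 1.02% (0.784% and 1.32%) and the control mean 0.0464%. A total of 27184 sites of the 5′ segment (84.8%) were called higher in the NaCNBH3 library (Fisher's exact test, two-sided, with Benjamini-Hochberg adjustment over the whole table and a threshold of 0.05), against 85931 sites in the rest (65.4%) and 59.8% of the whole rice table. Only 4 sites of the 5′ segment (0.0125%) were called lower, against 57 in the rest (0.0434%) and 0.294% of the whole table. Cytosines with T reads in the control alone could not be listed, so the small number called lower was also set by the list. Of the called sites of the 5′ segment, 90.9% had a rate under 2%, 91 reached 5%, 16 reached 10%, 9 reached 20% and 1 reached 50%. In the rest 94.6% of called sites were under 2%, 145 reached 5%, 42 reached 10%, 14 reached 20% and 1 reached 50%. These counts are out of 27184 called sites in the 5′ segment and 85931 in the rest. Among tested sites with under 200 NaCNBH3 reads, 107 in the 5′ segment and 122 in the rest stood at least 5 points above control, called or not.

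Along the gene span the called share went down step by step while the rate did not. It was 84.8% in the 5′ segment, and 79.6%, 78.6%, 72.1% and 49.4% in the bins of 20% that follow. The median NaCNBH3 rate was 1.06% in the 5′ segment and 1.01%, 1.01%, 1.01% and 1.03% in the others. What moved with the called share was the depth of the control library: its median was 1717 reads per site in the 5′ segment and 1574, 1469, 1280 and 523 reads in the bins that follow. The NaCNBH3 library had 926 reads in the 5′ segment and 1033, 1129.5, 1183 and 985 reads in the others. The median log2 ratio of NaCNBH3 to control reads was therefore -0.90 in the 5′ segment and 0.21 in the rest.

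**Figure D2:**
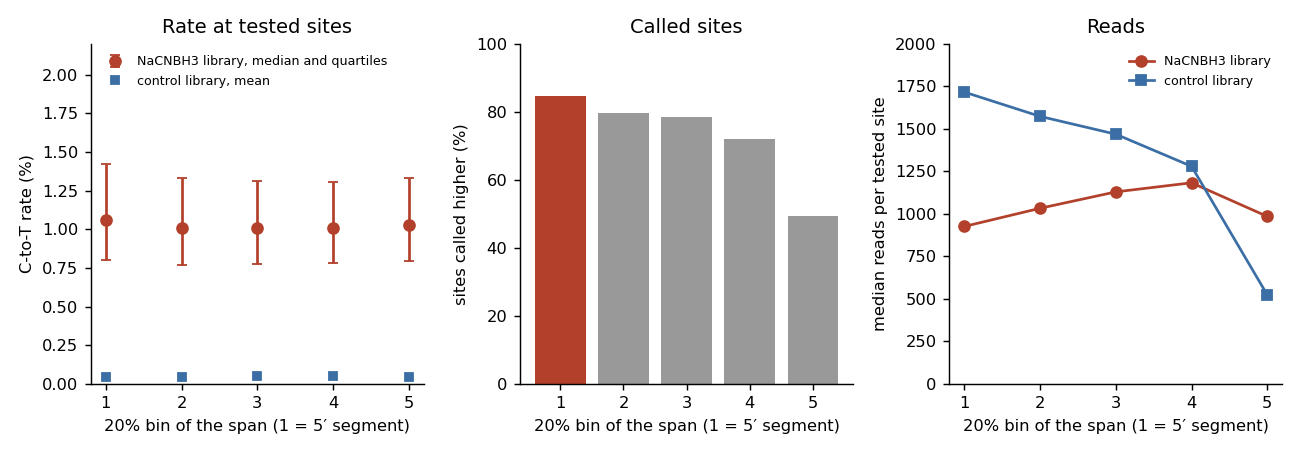
Median NaCNBH3 rate with quartiles and mean control rate (left), share of tested sites called higher (middle) and median reads per site in each library (right), for each bin of 20% of the gene span on the x axis. The called share is 84.8% in the 5′ segment and 49.4% in the last bin, the median rate stays between 1.01% and 1.06%, and the control reads fall to 523 per site in the last bin, against 1717 in the first.

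With the depth of the control held alike, the called shares of 5′ segment and rest came close. Among sites with 500 to 2000 NaCNBH3 reads and 500 to 1000 control reads, 71.6% of 3149 sites of the 5′ segment and 67.7% of 18703 rest sites were called. With 1000 to 2000 control reads the shares were 92.7% and 91.5%, and with 2000 to 5000 control reads 97.8% and 97.6%. With at least 1000 reads in both libraries, 96.6% of 13412 sites of the 5′ segment and 96.2% of 49777 rest sites were called, at median rates of 0.902% and 0.914%. Nearly every well covered cytosine of the list was thus called, in the 5′ segment as in the rest. No test was made of these shares.

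The NaCNBH3 rate itself depended on depth in the same way in both stretches. Under 200 NaCNBH3 reads the median rate was 3.59% in the 5′ segment and 3.47% in the rest. It was 1.70% and 1.64% at 200 to 500 reads, 1.02% and 1.02% at 500 to 1000, 0.866% and 0.870% at 1000 to 2000, and 0.975% and 0.972% at 5000 or more. With 5 T reads needed in the NaCNBH3 library, a shallow site could enter the list only at a high rate: 2.5% or more at 200 reads, 1% or more at 500 and 0.5% or more at 1000. Exactly 5 such reads were found at 17.0% of 5′-segment sites and 14.0% of rest sites, and fewer than 10 at 54.1% and 47.9%. Cytosines below that limit are not in the list, and a rate averaged over listed sites does not describe all cytosines of a gene.

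**Figure D3:**
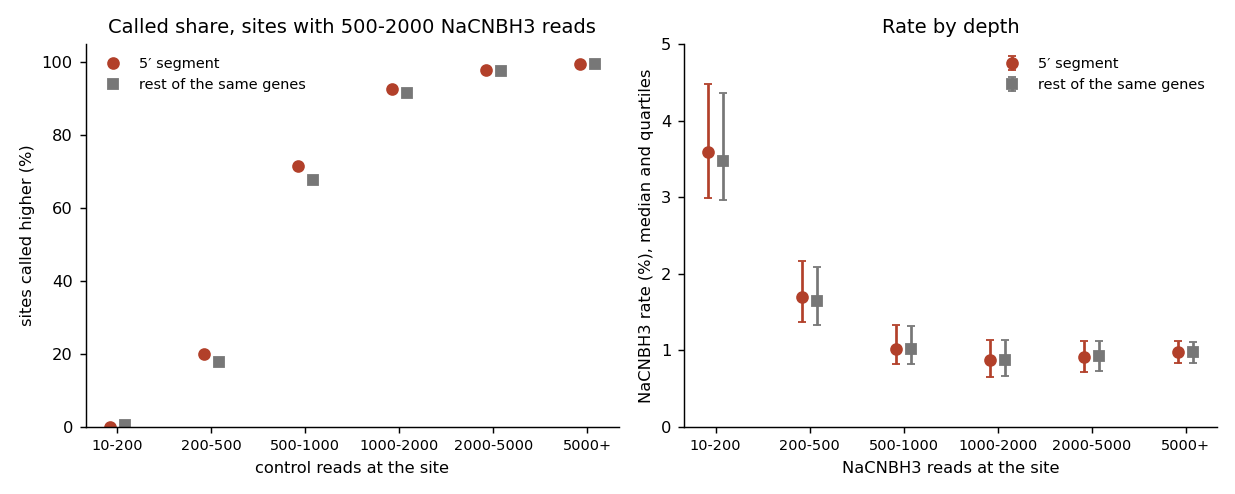
Left, share of sites called higher by control reads at the site, among sites with 500 to 2000 NaCNBH3 reads; right, median NaCNBH3 rate with quartiles by NaCNBH3 reads; 5′ segment as circles, rest of the same genes as squares. In the right panel the medians go down to 0.866% and 0.870% at 1000 to 2000 reads, and the largest gap between circles and squares is at the shallowest sites (3.59% and 3.47%).

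The members were clustered and unevenly shared among genes. A gene held a median of 10 sites of the 5′ segment and at most 232; 165 genes held 1, while the 213 genes with 50 or more held 57.4% of the sites. Neighbouring listed sites of a gene were a median of 3 bases apart, and 84.5% of gaps were at most 10 bases, so neighbours share reads. The sites lay a median of 216 bases from the gene start (quartiles 126 and 347.75, highest 2325). At least 1 member was called in 1124 genes, all tested members were called in 481, and in the 190 genes with none called the median was 2 sites.

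Sites were listed more often in highly expressed genes. Among the 391 genes with the highest WT mRNA level (41.3 RPKM or more), 97.2% had a 5′-segment site, with a median of 32, against 70.8% and a median of 2 among the 391 with the lowest (9.05 RPKM or less). The median NaCNBH3 rate was 0.971% in the highest group, with a median of 1224 reads per site, and 1.46% in the lowest, with 466 reads. The number of 5′-segment sites and the WT mRNA level had a Spearman's rho of 0.54 across the 1562 genes, which are not independent replicates. Over the chromosomes the members were alike: the called share ran between 80.6% on chromosome 2 and 89.4% on chromosome 7, and the median NaCNBH3 rate between 0.994% on chromosome 3 and 1.16% on chromosome 8.

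The limit of 20% marked no step. The 2313 sites just inside it (18% to 20% of the span) had a median NaCNBH3 rate of 1.01% and a called share of 85.1%, and the 2202 sites just outside (20% to 22%) had 1.02% and 84.6%. Counted in bases, the median rate was 0.993% in the first 50 bases of the gene, 1.05% at 100 to 200 bases, 1.06% at 300 to 500 bases, 1.18% at 500 to 1000 bases and 1.96% at 1000 bases or more. The last of these held 243 sites with a median of 337 NaCNBH3 reads, and 58.4% of them were called. At sites with at least 1000 NaCNBH3 reads, the rates were 0.837%, 0.922%, 0.870% and 0.894% for the nearer 4 of these distances, and the farthest held no such site.

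The 6 genes with most called members show how dense these low rates were. The gene at 15891587 to 15895204 on chromosome 2 had 231 of 232 sites of the 5′ segment called within a stretch of 723 bases, with a median NaCNBH3 rate of 0.987% against 0.0320% in the control. The median of its rest was 0.986%. The gene at 24984630 to 24992835 on chromosome 7 had 208 of 224 called, at a median of 0.915%, and its rest had 1.22%. The other 4, which include Os01g0595400 with 184 of 194, had between 170 and 205 called sites and 5′-segment medians between 0.945% and 0.999%. In Os01g0595400 none of the 34 sites in the rest was called, although their median NaCNBH3 rate was 0.990%, against 0.974% in the 5′ segment. The control depth at these 34 sites was not examined. The other genes of the 6 had most of their rest called: 134 of 187, 68 of 88, 153 of 179, 112 of 159 and 59 of 93 sites.

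Within single genes, the listed sites of the 5′ segment had on balance the higher rates in the NaCNBH3 library. Of 878 genes with at least 5 tested sites in each stretch, 625 had the higher median rate in the 5′ segment and 253 the lower. The difference of the medians, 5′ segment minus rest, had a median over genes of 0.105 points (95% interval from the order of the genes, 0.0840 to 0.124; quartiles -0.0197 and 0.401). A quasi-binomial model on T and other reads, with the sites of a gene as observations and Benjamini-Hochberg adjustment, called 205 genes higher in the 5′ segment (23.3% of those fitted) and 32 lower (3.64%) at an adjusted p under 0.05. The dispersion was allowed to fall under 1, which makes p-values smaller. Kept from falling under 1, a choice made after the data were seen, it left 177 genes called higher and 25 lower. The 5-read limit of the list cut off low rates in the tested values, and more so where reads were few. The interval, the calls and the p-values thus do not tell a difference in rate from one in depth. The interval also treats the genes of 1 library as independent. Neighbouring sites also share reads, which can make the p-values too small, and the model compares stretches of RNA within 1 library.

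Depth moved with these calls as well. The 5′ segment had fewer NaCNBH3 reads per site than the rest in 201 of the 205 genes called higher, and more in 27 of the 32 called lower. Across the 878 genes, rate difference and log2 ratio of reads had a Spearman's rho of -0.60. With at least 500 reads in both libraries at each site, the median difference was 0.0216 points over 480 genes, with 16 genes called higher and 6 lower. With 500 to 2000 NaCNBH3 reads it was 0.0354 points over 501 genes, with 11 higher and 2 lower. With at least 1000 reads in both, a minimum added after the data were seen, the median difference was -0.0211 points over 249 genes, with 5 called higher and 6 lower. At this last minimum the sign of the median difference turned.

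**Figure D4:**
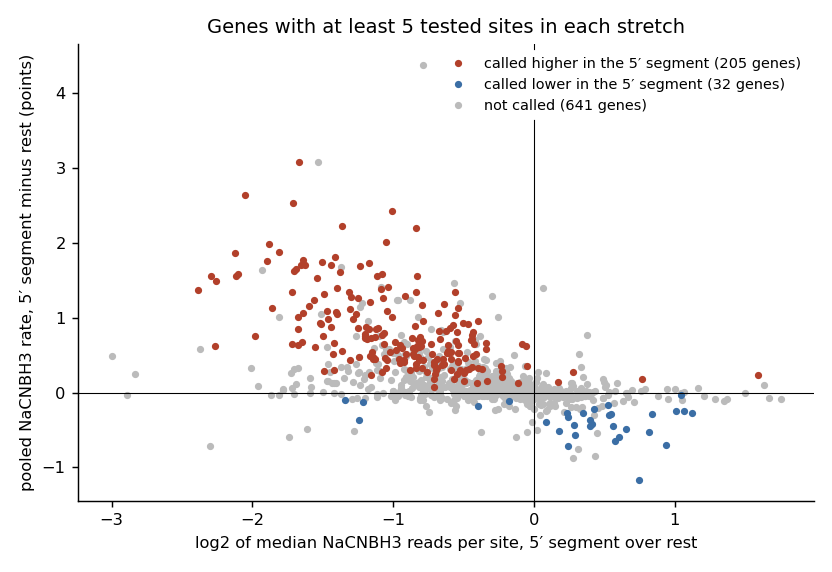
Pooled NaCNBH3 rate of the 5′ segment minus that of the rest (y axis, points) against the log2 ratio of median NaCNBH3 reads per site, 5′ segment over rest (x axis), for 878 genes. The 205 genes called higher lie mostly left of 0, with fewer reads in the 5′ segment, and the 32 called lower mostly right of it.

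The largest differences among called genes with at least 10 tested sites in each stretch had shallow 5′ segments. In the gene at 8440438 to 8445684 on chromosome 5, the pooled NaCNBH3 rate was 3.12% over 11 sites of the 5′ segment (median 192 reads) and 1.35% over 80 sites in the rest (600 reads), a difference of 1.77 points. The limit of 5 T reads comes to 2.60% at 192 reads and 0.833% at 600 reads, and its part in the difference was not tested apart. The gene at 24476060 to 24480927 on chromosome 3 had 2.88% over 13 sites of the 5′ segment (240 reads) and 1.18% over 130 sites in the rest (756.5 reads), where the limit comes to 2.08% and 0.661%. Its difference of 1.70 points was 0.622 without the last 20% of the span (adjusted p = 0.326, quasi-binomial F test) and 0.764 over called sites (adjusted p = 0.142). It also holds 1 of the 16 high sites, position 24476761 at 7.11% (4.20 to 11.1; 17 of 239 reads) after NaCNBH3, against 0 of 516 control reads. The other 4 genes of this end had differences between 1.39 and 1.56 points, with 192 to 243 reads per 5′-segment site and 341 to 1071.5 in the rest.

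At the other end, the gene at 23316218 to 23322871 on chromosome 1 had 2.10% over 19 sites of the 5′ segment (median 321 reads) and 3.27% over 18 sites in the rest (191 reads), a difference of -1.17 points. Here the limit comes to 1.56% in the 5′ segment and 2.62% in the rest. The gene at 1985492 to 1987785 on chromosome 7 had 1.26% over 36 sites of the 5′ segment (695 reads) and 1.97% over 17 sites in the rest (362 reads), and it lost its call without the last 20% of the span (-0.434 points, adjusted p = 0.263, quasi-binomial F test). The other 4 had differences between -0.648 and -0.515 points. In all 6 the 5′ segment had more reads per site than the rest, so the limit was lower there; in the 6 genes of the other end it was higher. The control library's pooled rate in the 5′ segment of these 12 genes was at most 0.184%.

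The 4 sites of the 5′ segment called lower had clear T reads in the control library. Position 3209053 of chromosome 3, in Os03g0160200, had 6.85% (39 of 569 reads) after NaCNBH3, against 27.9% (209 of 748 reads) in the control (adjusted p = 1.03e-22, Fisher's exact test). Position 15047113 of chromosome 5, in Os05g0323900, had 9.74% after NaCNBH3 and 15.3% in the control. The other 2 had 3.51% after NaCNBH3 with 8.30% in the control, and 2.83% with 6.18%. A control rate of 5% or more was rare among members, at 11 of 32073 tested sites of the 5′ segment, against 94 of 131395 in the rest. Such sites were read as T without reduction.

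Genes with high 5′-segment sites were followed in the RNC-seq libraries, where the question was whether their ribosome association differed in osnat10. Translation efficiency (TE) was the log2 level in RNC minus that in mRNA, on the log2 scale of RPKM plus 1. No gene was called higher (0%) or lower (0%) in TE among 3665 tested genes of the table (limma, adjusted p under 0.05), and 219 had an unadjusted p under 0.05. The 1307 tested genes with a 5′-segment site had a median TE difference, osnat10 minus WT, of -0.10 (77 at an unadjusted p under 0.05), and all 3665 tested genes had -0.10. These 3665 genes are themselves of the list titled for genes with ac4C modification. They are therefore no background of all rice genes. The 16 genes with a high 5′-segment site also had -0.10, with differences between -0.73 and 0.91, 6 above 0 and 10 below, and 2 at an unadjusted p under 0.05. Over all 3665 tested genes, 1510 differences were above 0 and 2155 below. Without 1 osnat10 RNC library, the second listed, 9 genes of the table were called higher and 93 lower, so that the count of 0 depends on that library.

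Levels of the 16 genes with a high site went both ways. In RNC 7 stood above and 9 below WT in osnat10, with a median difference of -0.07 on the log2 scale of RPKM plus 1, against -0.17 over all tested genes of the list. In mRNA 8 stood above and 8 below, with a median of -0.02, against -0.07 over all tested genes of the list. These levels were not tested, and the directions over all tested genes of the list were not counted. The 2 highest sites belonged to genes that stood lower in RNC, and 2 others, chosen after their values were seen, are given that did not.

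Os07g0529600, with the 94.6% site, stood lower in osnat10 in both fractions. Its RNC level was 5.62 and 7.08 RPKM in osnat10, against 35.9 and 26.5 RPKM in WT, and its mRNA level was 6.73 and 9.61 RPKM in osnat10, against 29.1 and 22.5 RPKM in WT. How many of all tested genes differ as much between osnat10 and WT was not counted. The levels here and below are therefore not read as a result about these genes. The difference in TE was -0.57 (SE 0.41, limma adjusted p = 0.812), and neither level was tested alone. For Os01g0595400 the RNC level was 13.6 and 16.0 RPKM in osnat10, against 23.9 and 21.0 RPKM in WT, with mRNA at 49.2 and 50.4 RPKM in osnat10, against 38.4 and 51.6 RPKM in WT. The TE difference of this gene was -0.73 (SE 0.32, limma adjusted p = 0.797). The gene at 9874379 to 9876678 on chromosome 1, with the 22.3% site, had RNC levels of 87.1 and 109 RPKM in osnat10, against 67.3 and 74.6 RPKM in WT, and mRNA levels of 124 and 138 RPKM in osnat10, against 74.3 and 82.3 RPKM in WT. The gene at 1561754 to 1566957 on chromosome 8, with the 16.25% site, had RNC levels of 40.1 and 61.6 RPKM in osnat10, against 33.8 and 31.5 RPKM in WT. These last 2 genes were chosen after their values were seen. The C-to-T rates and these levels come from different plants, and their relation was not tested.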

How the data were processed

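The deposited rice site table gives 2 counts per library for each listed cytosine, T reads and a column headed C. Per the submitters' processing notes, STAR 2.5.3a, SAMtools and the build IRGSP-1.0 were used; which step each served, and how sites came to be listed, is not given in the sources used here. The C count was taken as all reads, because the p-value the authors deposited then matched a 2-proportion test (relative tolerance 0.001) for 100% of 341170 sites, and for 1.85% if it was read as unconverted reads. The deposited RNC table gives gene spans, strands and RPKM made by the authors, for 3695 rice genes. Its title speaks of genes with ac4C modification, and how they were chosen is not given in the sources used here. Its read depth is unknown, and its WT columns share a name, so libraries are called by listing order. Sites carry no strand. Plus-strand genes held 170383 listed sites in 1551 of 1562 genes, and minus-strand genes 2825 in 656 of 1436. Of the rule's genes, 8 overlapped another gene of the table.

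Each site with 10 or more reads in each of the libraries entered Fisher's exact test, two-sided, of T against non-T reads, adjusted by Benjamini-Hochberg over 341377 sites. Genes with at least 5 tested sites in each stretch were fitted with a quasi-binomial model (dispersion from the sites, F test). TE was tested as the interaction of genotype and fraction in limma 3.58.1 under R 4.3.3, with a trended eBayes prior, on log2 of RPKM plus a pseudocount of 1, for genes whose mean RPKM reached 1. Nothing says that replicates came from separate plants, so p-values cover only the spread between libraries. Exact intervals are 95% Clopper-Pearson, and a count of 0 allows 3 counts. The scripts were tested on simulated data; Python 3.11.15, numpy 2.4.6, pandas 2.3.3, scipy 1.17.1, numba 0.67.0 and matplotlib 3.10.9 were also used.

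The members, thresholds, tests and alternatives were chosen with earlier results of these data known. Named were the 12 called sites of the 5′ segment with the largest difference, 1 per gene with at least 50 reads in both libraries, the 6 largest and 6 smallest called gene differences with at least 10 tested sites in each stretch, and the 6 genes with most called sites. Sites called lower, sites at least 5 points above control and sites of very low rate were described after their values were seen. No reference genome of the build was used, so sequence context, exons and gene names are not given.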

Additional observations from a re-analysis of the deposited data

How the results depend on the processing

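The count of 27184 called sites of the 5′ segment stayed within 1.5 times under 20, 50 or 200 reads in both libraries, the Benjamini-Yekutieli adjustment (19925), the authors' deposited adjusted p (18271), genes that overlap no other gene and the first 25% of the span. It was 14591 with a difference of at least 1 point, 16563 with 0 T reads in the control and 15225 in the first 10% of the span, all smaller by construction. The median per-gene difference of 0.105 points was 0.0216 with 500 reads in both libraries, 0.0354 at 500 to 2000 NaCNBH3 reads, 0.0547 over called sites, 0.0383 in genes of at most 2000 bases, 0.0724 without the last 20% of the span, 0 with the control library's rate and, in a choice made after the data were seen, -0.0211 with 1000 reads in both. The 237 called genes became 22, 13, 143, 30, 143, 12 and 11 under these settings in the same order, and 146 with the first 10% of the span. Fewer sites or genes entered each of these fits except that of the control library, and beyond this the cause was not tested.

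Of the named sites, the one at position 17923255 of chromosome 5 lost its call under the Benjamini-Yekutieli adjustment (adjusted p = 0.152, Fisher's exact test) and in the deposited table. Among the 12 named gene differences, 87 of 110 alternative values kept direction and call, 13 lost the call, and 10 changed sign. With the control library's rate the sign changed in 9 genes, at -0.0193, -0.0142, -0.0471, -0.00359, 0.0195, 0.0145, 0.184, 0.0170 and 0.0188 points, none of them called. Without the last 20% of the span it changed in the gene at 35623 to 41136 on chromosome 1, at -0.497 points (adjusted p = 0.586, quasi-binomial F test).

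The count of 0 genes called in TE ran between 0 and 102 when each library was left out in turn. It was 2 without the WT RNC library listed first, 1 without the osnat10 RNC library listed first and 102 without the one listed second; the single library left in such a group was assumed to vary like the other groups. It was 0 with other pseudocounts (0.1 and 5), without the filter and with each library centred on its median. No paired analysis was possible because ac4C-seq has 1 library per group and the WT columns of the RPKM table carry no replicate number. Depth limits the site results: few control reads leave small differences undetected, and cytosines with fewer than 5 NaCNBH3 T reads are not described.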

Other observations

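A few 5′-segment sites had very low rates after NaCNBH3. With 5 T reads needed, a rate under 0.1% could enter the list only above 5000 NaCNBH3 reads. The great depth of these sites, and in part which genes hold them, was thus set by the list. Rates under 0.1% were found at 54 sites of the 5′ segment in 5 genes, chosen after their values were seen, and 21 of them were called higher than the control by Fisher's exact test. All 18 sites of the 5′ segment of the gene at 34088390 to 34090279 on chromosome 4 were among them, with NaCNBH3 rates between 0.0144% and 0.0638% (median 26412.5 reads) and a control median of 0 (6082 reads); none was called. All 8 sites of the 5′ segment of the gene at 2562873 to 2564200 on chromosome 3 were among them too, with a median NaCNBH3 rate of 0.0237% against 0.0353% in the control, and none was called. The 61 sites in the rest of that gene had a median of 0.0198%. Over all sites of the 5′ segment with 5000 or more NaCNBH3 reads, the median rate was 0.975%.

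In the gene at 30993280 to 30995120 on chromosome 6 the low rates filled 1 block. Its 24 sites between 149 and 224 bases from the start had a median NaCNBH3 rate of 0.0442%, with a median of 18159 reads, and no other listed site lay between them. Of these 24, 18 were still called higher than the control, where the median rate was 0 with a median of 16897 reads. The 64 other sites of the 5′ segment, between 30 and 277 bases from the start, had a median of 0.934% with 13364 reads, and all 64 were called. The cause of this step within a gene was not tested.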
